A study of Mus musculus with 6 samples.

Results

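The translation initiation factors are the proteins that bring an mRNA, the initiator tRNA and the ribosomal subunits together at a start codon. Their genes were taken from the deposited table by name: every gene whose symbol begins with Eif and a digit from 1 to 6, without the eIF2 kinases (Eif2ak), the Y-linked Eif2s3y and names marked as pseudogenes. This gave 70 genes of 53647 in the table, from 85 whose names matched. By factor they were 5 genes of eIF1 and eIF1A, 5 of eIF2, 5 of eIF2B, 14 of eIF3, 18 of eIF4 and 5 of eIF5, eIF5A, eIF5B and eIF6. Another 17 were Eif1ad copies clustered on chromosome 12, and the last, Eif2c5, is listed in the table as a long noncoding RNA. Symbols of the form Eif2c were formerly used for Argonaute genes, so its name does not make it a subunit of eIF2.

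The RNA came from macrophages of pancreatic ductal adenocarcinomas grown orthotopically in C57BL/6 mice, sorted by expression of Cxcr4 into 3 Cxcr4+ and 3 Cxcr4- libraries of total RNA. The labels file this sort under genotype, but name no engineered allele, drug or time point in either group, and the sources used here give neither the animals' age nor their number. Both groups share the tumour model, tissue and strain. Whether each library is a different animal is not in the labels, so p-values measure only the spread between these libraries.

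Initiation proceeds in steps that order the results here. The cap of the mRNA is bound by eIF4E, which joins the scaffold eIF4G and the RNA helicase eIF4A in the complex eIF4F; eIF4B and eIF4H are RNA-binding cofactors that stimulate eIF4A. The small ribosomal subunit carries eIF3, eIF1, eIF1A and the initiator tRNA, which eIF2 delivers as a complex with GTP. The exchange factor eIF2B recharges eIF2, and it is inhibited when eIF2 is phosphorylated. In macrophages this machinery is known as a point at which stress and nutrient signals control how much cytokine and other protein is made from existing mRNA.

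The result below turns on Eif4h, whose RNA differed between the groups, while that of Eif4b, which encodes the other cofactor of the same helicase, was not called. Their RefSeq promoter windows (build GRCm38.p6, 250 bases before to 50 bases after the start, on the gene's strand) are chr5:134639360-134639659 on the reverse strand for Eif4h and chr15:102073523-102073822 on the forward strand for Eif4b. They are shown with searched motifs in capitals.
Eif4h: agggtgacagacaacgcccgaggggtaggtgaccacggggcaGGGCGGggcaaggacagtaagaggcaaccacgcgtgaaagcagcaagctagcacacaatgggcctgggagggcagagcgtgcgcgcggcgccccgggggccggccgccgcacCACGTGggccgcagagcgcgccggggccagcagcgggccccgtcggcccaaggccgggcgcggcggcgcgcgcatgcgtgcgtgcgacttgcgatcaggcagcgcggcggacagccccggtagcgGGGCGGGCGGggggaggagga
Eif4b: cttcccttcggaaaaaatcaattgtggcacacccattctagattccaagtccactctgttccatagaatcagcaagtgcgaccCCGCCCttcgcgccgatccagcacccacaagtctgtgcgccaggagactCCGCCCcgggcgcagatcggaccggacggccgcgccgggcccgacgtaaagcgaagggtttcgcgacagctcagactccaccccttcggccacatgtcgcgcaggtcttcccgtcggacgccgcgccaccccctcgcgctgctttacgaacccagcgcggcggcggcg
The motifs searched on both strands were the GC box (GGGCGG), the E-box (CACGTG), the CCAAT box (CCAAT), the TATA box (TATAAA) and the core motif of NRF1. The Eif4h window held 3 GC boxes, the last pair overlapping, and 1 E-box, and the Eif4b window held 2 GC boxes. A GC box was found in 35.7% and an E-box in 7.15% of all 32851 windows. Of the 37 tested members with a window, 29 held a GC box and 9 an E-box. The CCAAT box was in 37.4% of all windows and 12 of the 37, the TATA box in 13.6% and 3, and the NRF1 core in 0.971% and 1. A member was counted if any of its windows held the motif, while the shares over all windows count each window once. The member counts and these shares are thus unlike measures. All are letter matches only. The expression table gives no value per start site.

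The libraries held 46444934 to 55740671 estimated counts, and the 70 genes took 1.02 to 1.19% of them. Cxcr4+ replicate 2 and Cxcr4- replicate 2 were closer to each other than to the other 4 libraries (chi-square per degree of freedom 16.5, against 20.4 to 32.1), so results that rest on them are also given without them. Macrophage markers summed to 7377 to 9201 FPKM in Cxcr4+ against 6573 to 7842 FPKM in Cxcr4- libraries, most of it Lyz2. Of the 8 tested, 3 had positive and 5 negative log2 fold changes. FPKM is the authors' level, scaled by gene length and library size. Fibroblast markers had positive log2 fold changes for 8 of 8 tested, with 0 called, and summed to 3.38 to 17.6 FPKM in Cxcr4+ against 1.91 to 3.32 FPKM in Cxcr4- libraries. Epithelial and tumour markers had negative values for 8 of 8, with 0 called, and summed to 1.76 to 3.38 against 3.52 to 6.08 FPKM. Neutrophil markers summed to 6.62 to 9.34 against 7.06 to 10.2 FPKM, with S100a9 at 0 in every library, and T and NK cell markers to at most 0.102 FPKM, with Cd8a, Ncr1 and Nkg7 at 0. B cell markers summed to 30.7 to 36.1 FPKM, almost all of it Ighm, with ranges that overlapped between groups. Acinar and endothelial markers summed to at most 0.726 and 0.391 FPKM, with Amy2b, Cpa1, Ctrb1, Pnlip and Cldn5 at 0. The log2 fold change was positive for 4 of 4 tested endothelial markers and negative for 2 of 3 neutrophil markers. Groups did not overlap for 1 of 4 endothelial, 1 of 3 neutrophil and 1 of 8 macrophage markers, against 10.4% of all tested genes.

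Eif4h was the 1 tested member called between the sorted populations. It stood at 21.6, 23.8 and 25.1 FPKM in Cxcr4+ replicates 1, 2 and 3, and at 43.5, 55.96 and 46.5 FPKM in Cxcr4- replicates 1, 2 and 3. Every Cxcr4+ library lay below every Cxcr4- library, and the lowest Cxcr4- value was well above the highest Cxcr4+ value. The estimated counts behind these levels were 7555, 7754 and 8203 against 13714, 17345 and 13531. Eif4h fell to a mean of 23.5 ± 1.77 FPKM in Cxcr4+ from 48.7 ± 6.49 FPKM in Cxcr4- libraries (SD, n = 3 each), a ratio of 0.483. The edgeR log2 fold change was -1.05 (SE 0.10, 95% interval -1.29 to -0.82, adjusted p = 0.0315 over 16031 genes tested). The exact two-sided permutation test of its FPKM gave p = 0.1, the smallest that 3 against 3 libraries allow. In RNA of sorted cell populations, a lower share of cells expressing a gene and less of its RNA per cell cannot be told apart.

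Of the 48 members that passed the filter on low counts, 0 were called higher and 1, Eif4h, was called lower; over all tested genes 0.0125% were called higher and 0.0187% lower, 0.0312% in all. DESeq2 also called 1 member, Eif4h, lower. It called 0.436%, 0.249% as lower, of the 14466 genes to which it gave an adjusted p. With all 6 libraries the call of Eif4h was lost when edgeR used library totals alone (Eif4h log2 fold change -1.05, adjusted p = 0.0702), the libraries numbered 2 as a block (adjusted p = 0.0571) or a block for each replicate number (adjusted p = 0.115). It was also lost with limma-trend on log2(FPKM + 1) and log2(FPKM + 0.1) (adjusted p = 0.130 and 0.113). In the 11124 tested genes that averaged 1 FPKM or more, 81 had a larger fold change in size than Eif4h. The log2 fold change of Eif4h was -1.12 to -0.98 when any 1 library was left out, but its call was then lost in each case (adjusted p = 0.0820 to 0.159). Cxcr4+ replicate 1 held the highest summed level of fibroblast markers, and without it the Eif4h log2 fold change was -1.01 (adjusted p = 0.159). Leaving it out did not remove the difference in these markers. Cxcr4+ replicates 2 and 3 still summed to 3.38 and 4.10 FPKM of them, against 1.91 to 3.32 FPKM in Cxcr4- libraries. Cxcr4+ replicate 1 also held the lowest summed level of epithelial and tumour markers, at 1.76 FPKM. In the libraries numbered 1 and 3 alone the Eif4h log2 fold change was -0.96 (adjusted p = 0.134). Of the fibroblast and of the epithelial and tumour markers 0 were called, where 0.0312% of all tested genes were. Groups did not overlap for 4 of 8 tested fibroblast and 3 of 8 epithelial and tumour markers, against 10.4% of all tested genes. At an unadjusted p under 0.05 by edgeR there were 3 and 2 of them, where 4.85% of all tested genes reached it. The part of these markers in the Eif4h result was not tested.

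**Figure D1:**
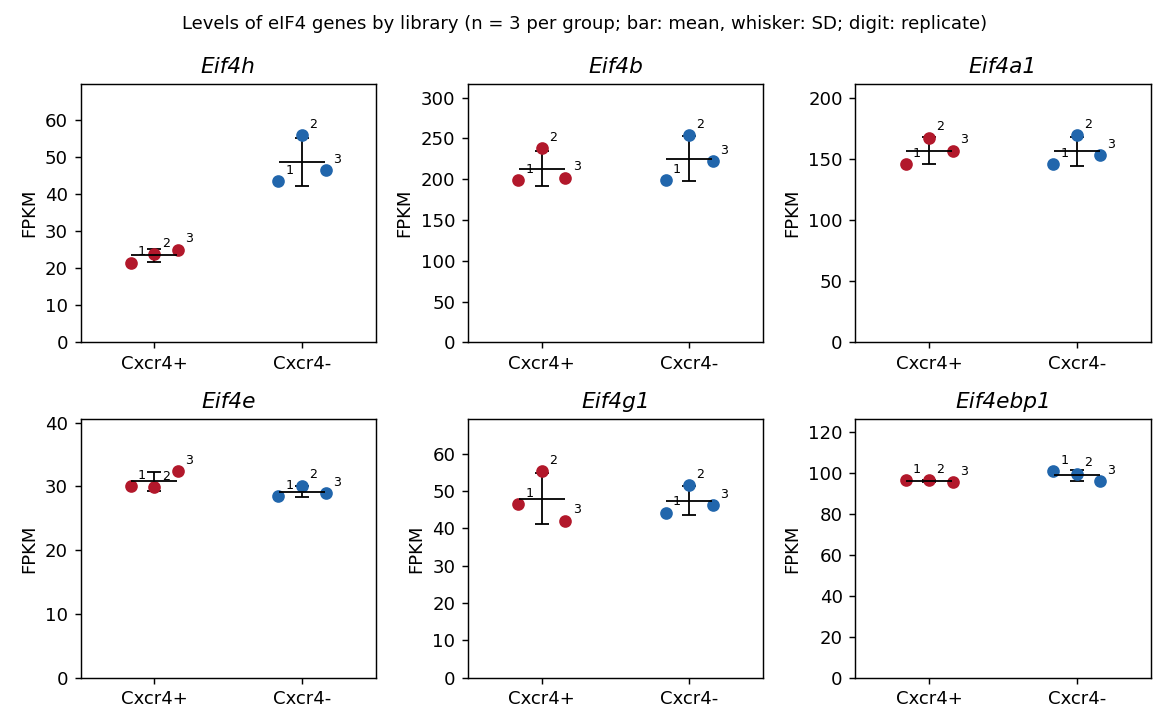
FPKM (y axis, starting at 0) of 6 eIF4 genes in the 3 Cxcr4+ and 3 Cxcr4- libraries; points are libraries with their replicate number, bars the mean and whiskers the SD. For Eif4h the groups do not overlap (21.6 to 25.1 against 43.5 to 55.96 FPKM), whereas they overlap for the other 5 genes.

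Set against other eIF4 genes of the same library, the difference in Eif4h was of similar size. The ratio of Eif4h to Eif4b in FPKM was 0.108, 0.09998 and 0.124 in Cxcr4+ replicates 1, 2 and 3, and 0.219, 0.220 and 0.209 in Cxcr4- replicates 1, 2 and 3. The mean ratio was 0.111 ± 0.0123 against 0.216 ± 0.00587 (SD, n = 3 each). The Cxcr4- libraries, which differed in Eif4h level from 43.5 to 55.96 FPKM, lay close together in this ratio. The Cxcr4+ libraries did not draw together in the same way. Their lowest ratio was in replicate 2, which had the highest Eif4b level of these libraries. Eif4b itself was the most abundant eIF4 gene, at 199, 238 and 202 FPKM in Cxcr4+ and 199, 254 and 222 FPKM in Cxcr4- libraries, with overlapping groups (log2 fold change -0.08, 95% interval -0.29 to 0.12).

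The helicase itself is encoded by Eif4a1 and Eif4a2, while the related Eif4a3 belongs to the exon junction complex. Eif4a1 stood at 146, 168 and 157 FPKM in Cxcr4+ against 146, 169 and 154 FPKM in Cxcr4- libraries, and the values of the groups nearly coincide (95% interval of the log2 fold change -0.17 to 0.17). Eif4a2 had 38.8, 37.4 and 41.0 against 40.9, 43.4 and 44.7 FPKM (log2 fold change -0.14, SE 0.09), with 1 Cxcr4+ library just above the lowest Cxcr4- library. Eif4a3 had 34.8 ± 7.35 against 35.5 ± 5.59 FPKM. Eif4a1 exceeded Eif4a2 in every library, by a ratio of 3.43 to 4.49. A processed pseudogene that the name rule left out, Eif4a-ps4, was listed at 81.0 to 124 FPKM, so reads of Eif4a genes and this copy may be split between them.

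**Figure D2:**
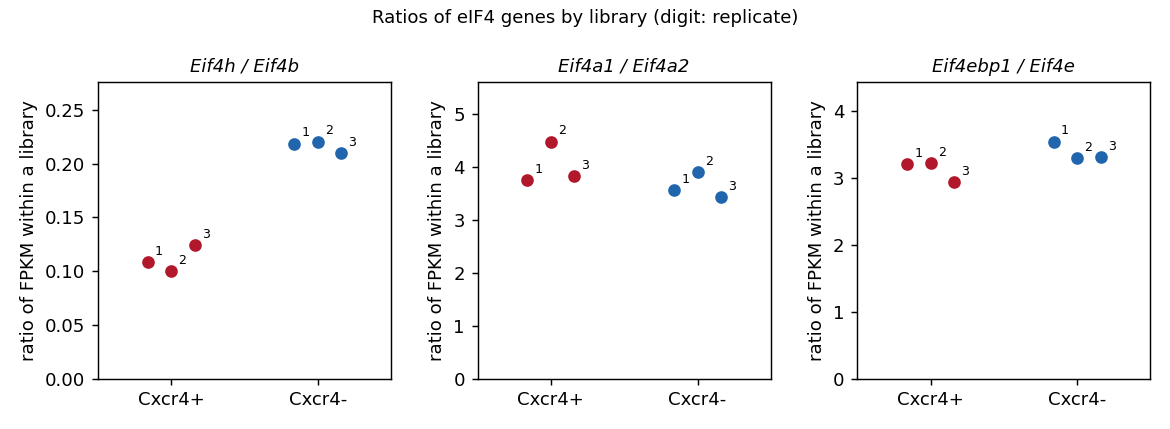
Ratios of FPKM within each library (y axis, from 0) for Eif4h to Eif4b, Eif4a1 to Eif4a2 and Eif4ebp1 to Eif4e; points are libraries with their replicate number. The Eif4h to Eif4b ratio runs from 0.09998 to 0.124 in Cxcr4+ and from 0.209 to 0.220 in Cxcr4- libraries, the Eif4a1 to Eif4a2 ratios of the groups overlap, and those of Eif4ebp1 to Eif4e are 2.94 to 3.22 against 3.299 to 3.54.

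The cap-binding genes did not differ beyond the spread between libraries. Eif4e, which encodes the cap-binding subunit of eIF4F, had 30.8 ± 1.45 against 29.2 ± 0.870 FPKM (log2 fold change 0.07, 95% interval -0.12 to 0.27). Eif4e2, which encodes a cap-binding repressor, had 11.6 ± 1.58 against 11.2 ± 1.24 FPKM, and Eif4e3 had 7.94 ± 0.547 against 8.01 ± 1.12 FPKM. In each library the levels per length ran from Eif4e through Eif4e2 to Eif4e3.

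Of the scaffolds, Eif4g1 had 48.01 ± 6.81 against 47.4 ± 3.83 FPKM. Eif4g2, which encodes a scaffold that lacks the eIF4E-binding site, had 41.6 ± 2.10 against 41.2 ± 3.17 FPKM, and Eif4g3 had 10.4 ± 0.810 against 11.4 ± 0.699 FPKM (log2 fold change -0.14, SE 0.07). The ratio of Eif4g1 to Eif4g2 spanned 0.999 to 1.41 over the libraries, so their order was not the same in all of them.

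The eIF4E-binding proteins block the assembly of eIF4F unless mTORC1 phosphorylates them. Eif4ebp1 was the most abundant of them, at 96.2, 96.4 and 95.5 FPKM in Cxcr4+ and 101, 99.4 and 95.8 FPKM in Cxcr4- libraries. The ratio of Eif4ebp1 to Eif4e was 3.12 ± 0.157 against 3.39 ± 0.138 (SD, n = 3 each). Its groups did not overlap, by a small margin (2.94 to 3.22 against 3.299 to 3.54), and it was not tested. It was among several ratios computed, of which those of Eif4ebp1 to Eif4ebp2 and of Eif4e to Eif4e2 overlapped between groups. How often ratios of other genes do not overlap was not computed. Eif4ebp1 was the least variable of the 48 tested members, with a coefficient of variation of 2.28% over the libraries. Eif4ebp2 had 15.1 ± 1.05 against 16.1 ± 0.834 FPKM. Eif4ebp3 lay near the detection limit, at 14 to 92 counts. Its 2.17 FPKM in Cxcr4- replicate 1 was 5.38 times the median of the other 5 libraries, and its interval was wide (log2 fold change -1.07, 95% interval -2.72 to 0.58). Eif4enif1, which encodes the protein that carries eIF4E into the nucleus, had 8.74, 8.25 and 8.98 against 9.72, 9.75 and 9.18 FPKM. Its groups did not overlap, but the difference was small and not called (log2 fold change -0.15, SE 0.10, adjusted p = 0.999).

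No overlap between groups was seen for 3 of 48 members, 6.25%, against 10.4% of all tested genes. Eif4h and Eif4enif1 were lower in every Cxcr4+ library (4.87% of all tested genes), and Eif1ax was higher in every one (5.5%). At an unadjusted p under 0.05 by edgeR there was 1 member, Eif4h, where 4.85% of all tested genes reached it. The log2 fold change was negative for 31 members and positive for 17, against 49.9% and 50.1% of all tested genes, with a median of -0.03 over the members and 0.0004 over all genes. For 45 of the 48, the log2 fold change was under 0.25 in size and, counted separately, 45 had a 95% interval that stayed within 1 log2 unit of 0. In the latter count the exceptions were Eif4h, Eif4ebp3 and Eif1a.

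**Figure D3:**
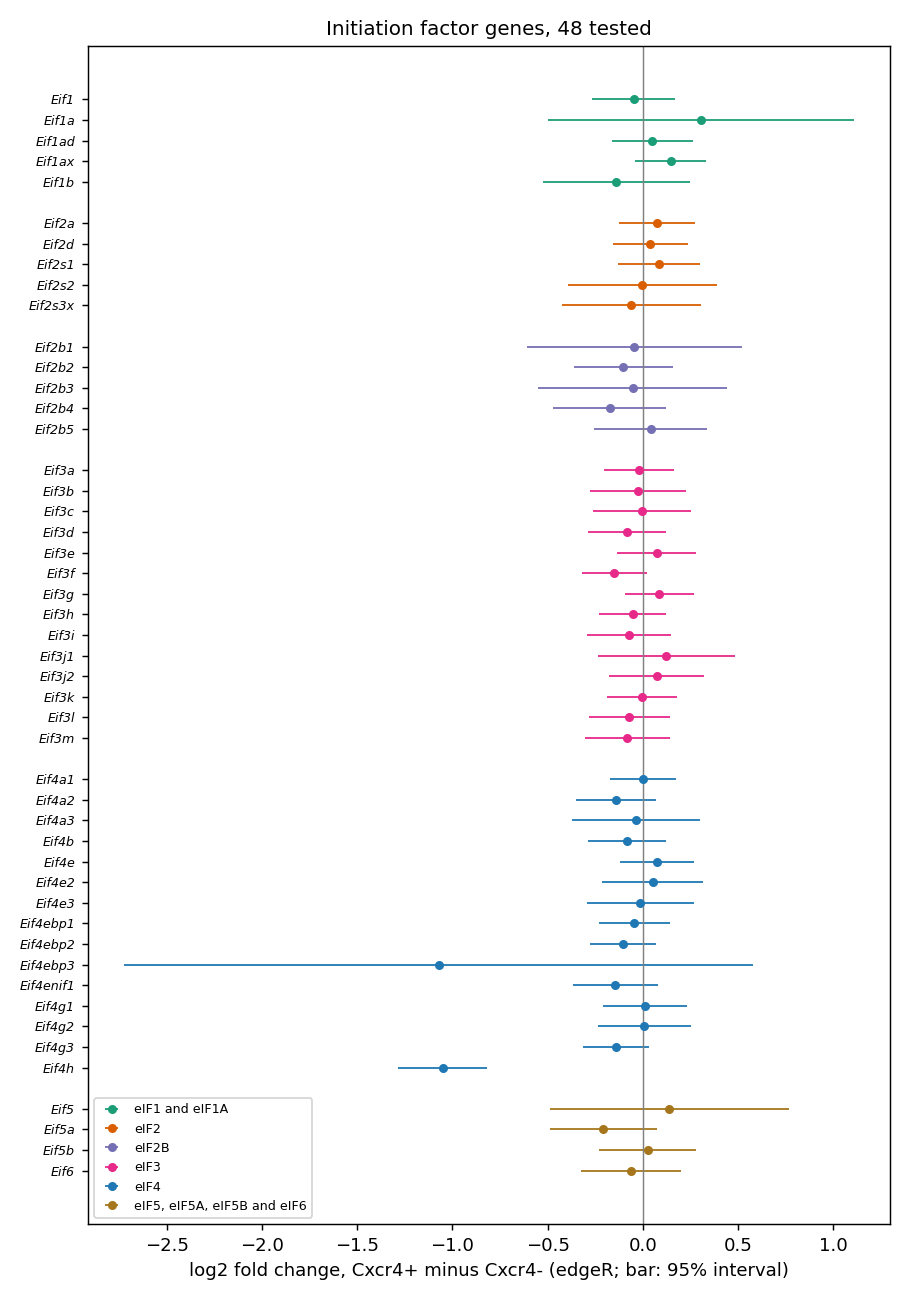
Log2 fold change of Cxcr4+ minus Cxcr4- libraries (x axis) from edgeR for the 48 tested genes (y axis), coloured by factor; bars are 95% intervals. The interval of Eif4h, -1.29 to -0.82, lies apart from 0, and those of the other 47 genes include 0.

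The genes of eIF3, the large scaffold on the small ribosomal subunit, were all tested and 0 of 14 were called. Their median log2 fold change was -0.03, with 10 negative and 4 positive values from -0.15 to 0.12. Their levels spanned 6.18 FPKM for Eif3j1 to 270 FPKM for Eif3h. Eif3h had 253, 276 and 267 FPKM in Cxcr4+ and 274, 275 and 272 FPKM in Cxcr4- libraries, with groups that overlapped. The smallest p was that of Eif3f, at 138, 159 and 145 against 161, 169.8 and 158 FPKM (log2 fold change -0.15, SE 0.07, adjusted p = 0.999). Only Cxcr4+ replicate 2 reached into the range of the Cxcr4- libraries. Eif3f and Eif3h encode the paired MPN-domain subunits of the complex.

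The other eIF3 subunits were as close. Eif3a, which encodes the largest subunit, had 60.0 ± 2.89 against 60.8 ± 6.27 FPKM, and Eif3d, whose product can itself contact the cap, 55.6 ± 5.65 against 58.6 ± 6.23 FPKM. Eif3j1 and Eif3j2 encode the loosely bound subunit j. Eif3j2 exceeded Eif3j1 in every library, by a ratio of 1.38 to 2.09. The coding sequences of this pair are alike, so the split of reads between them is uncertain. The half-width of the 95% interval was 0.17 to 0.36 (log2) over the 14 genes.

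The 3 subunits of eIF2 showed no call. Eif2s1 encodes the alpha subunit, the target of the stress kinases, and had 22.7, 28.4 and 26.1 against 22.1, 26.7 and 23.7 FPKM. Its groups overlapped, and its log2 fold change was 0.08 (SE 0.09). Eif2s2, the beta subunit gene, had 17.0 ± 4.56 against 16.9 ± 2.11 FPKM. The X-linked gamma subunit gene Eif2s3x was the most abundant, at 42.9 ± 5.26 against 44.8 ± 9.27 FPKM; reads of its close Y-linked relative Eif2s3y, left out by the name rule, can be hard to tell from its own. Eif2a and Eif2d, which encode other proteins that can deliver initiator tRNA, had log2 fold changes of 0.07 and 0.04.

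The eIF2B genes did not separate the groups. The catalytic subunit genes Eif2b3 and Eif2b5 had log2 fold changes of -0.05 and 0.04, and the regulatory subunit genes Eif2b1, Eif2b2 and Eif2b4 of -0.04, -0.10 and -0.17. None of the 5 was called by edgeR, also at an unadjusted p under 0.05. Eif2b1 stood at 8.78, 16.4 and 9.87 FPKM in Cxcr4+ replicates 1, 2 and 3 and at 10.4, 15.8 and 9.71 FPKM in Cxcr4- replicates 1, 2 and 3. In both groups the library numbered 2 was the high one, and the others lay close together. The same was seen for Eif2b3, at 5.26 and 5.25 FPKM in the libraries numbered 2 and 3.07 to 3.85 FPKM in the other 4.

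The pattern was seen in some of the other factors and not in others. For 23 of the 48 tested members, 47.9%, both libraries numbered 2 were higher than the other 4, as they were for 26.2% of all tested genes; for 1 member, Eif1b, both were lower, against 9.74% of all tested genes. By factor these were 4 of 5 eIF2B genes, 8 of 14 eIF3 genes, 5 of 15 eIF4 genes, 2 of 5 eIF2 genes, 2 of 5 genes of eIF1 and eIF1A, and 2 of 4 of the last group. The mean FPKM of the libraries numbered 2 over that of the other 4 had a median of 1.29 for eIF2B, 1.12 for eIF3 and 1.11 for eIF4, beside 1.08 over all tested genes. The ratio was 1.66 for Eif2b1, 1.54 for Eif2b3, 1.34 for Eif4a3 and 1.26 for Eif3c. As each group holds 1 such library, the pattern adds to the spread within both groups. In the 4 other libraries alone 0 members were called, where 5 of all 16184 genes tested there were. The labels do not say what the number stands for.

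**Figure D4:**
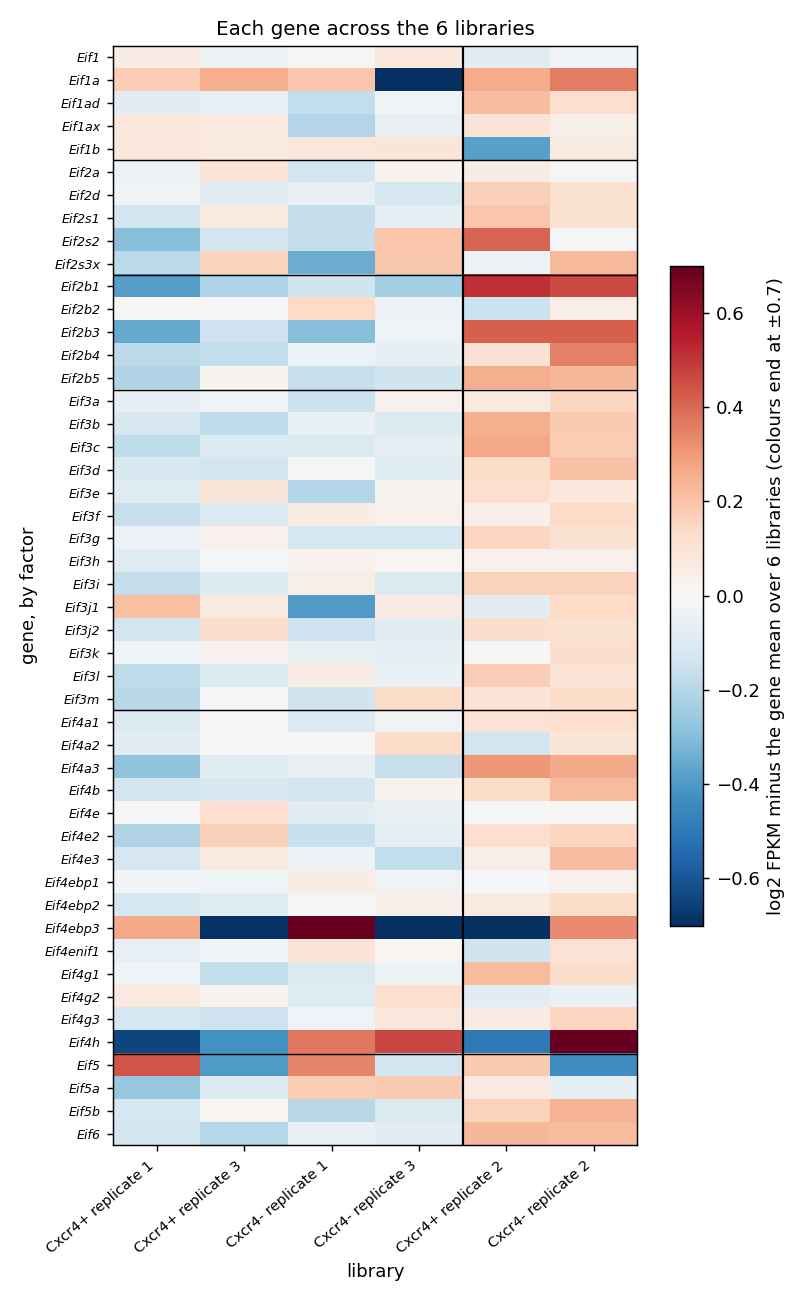
Log2 FPKM of each tested gene (y axis, by factor) in each library (x axis) minus the gene's mean over the 6 libraries; red is higher and blue lower, and colours end at ±0.7. The libraries numbered 2, to the right of the vertical line, are red in both groups for most eIF2B genes and many eIF3 genes, Eif4h is blue in Cxcr4+ and red in Cxcr4- libraries, and Eif1a is blue in Cxcr4- replicate 3.

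Among the factors of start codon recognition, Eif1 was the most abundant, at 105 ± 4.73 against 108 ± 3.62 FPKM, and exceeded its paralogue Eif1b by a ratio of 5.22 to 6.97. Eif1b had 14.5 FPKM in Cxcr4+ replicate 2 and 19.8 to 20.1 FPKM in the other 5 libraries. Eif1ax, the X-linked gene for eIF1A, had 15.5, 15.7 and 15.5 FPKM in Cxcr4+ and 12.8, 15.2 and 14.2 FPKM in Cxcr4- libraries. The lowest Cxcr4+ value exceeded the highest Cxcr4- value by a narrow margin, and the gene was not called (log2 fold change 0.15, SE 0.08, adjusted p = 0.999).

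Eif1a, its autosomal counterpart, stood at 27.5, 29.2 and 29.1 FPKM in Cxcr4+ and 27.9, 31.3 and 10.4 FPKM in Cxcr4- libraries. A single library, Cxcr4- replicate 3, was low, at 0.356 of the median of the other 5, while its Eif1ax level of 14.2 FPKM lay within the range of the rest. The ratio of Eif1a to Eif1ax was 0.732 in that library and 1.77 to 2.19 in the others. The log2 fold change of Eif1a was 0.30 (SE 0.34) with all libraries and -0.04 (SE 0.09) without Cxcr4- replicate 3. Eif1ad, which encodes a protein with an eIF1A-like domain, had 30.5 ± 3.57 against 29.3 ± 2.93 FPKM.

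Of the factors that act late in initiation or beyond it, Eif5a was the most abundant of all 70 members. Its product carries the hypusine modification and helps ribosomes through difficult sequences. Eif5a had 314, 394 and 353 FPKM in Cxcr4+ against 426, 360.1 and 428 FPKM in Cxcr4- libraries, so that the groups overlapped (log2 fold change -0.21, SE 0.12, adjusted p = 0.999). Eif5, the gene for the factor that triggers GTP hydrolysis by eIF2, varied widely within both groups, at 19.9, 16.6 and 11.1 against 18.5, 10.8 and 13.4 FPKM. Eif5b, for subunit joining, had 7.27 ± 0.710 against 7.14 ± 1.19 FPKM, and Eif6, whose product keeps the large subunit from joining early, 29.8 ± 4.98 against 31.0 ± 3.64 FPKM.

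The 22 members that did not pass the filter had at most 20 counts in a library. They were the 17 Eif1ad copies of chromosome 12, Eif2c5, Eif4a3l1 and Eif4a3l2, Eif4e1b, which encodes an eIF4E relative known from oocytes, and Eif5a2, the second eIF5A gene. Of these, 16 had 0 counts in all 6 libraries. Eif4a3l1 reached 12 counts and Eif4a3l2 20. Near-identical copies can lose reads to each other in counting, so a count of 0 for a single Eif1ad copy is uncertain.

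Among 54 tested genes that control initiation or act after it, in 5 lists, 0 were called, where 0.0312% of all tested genes were. At an unadjusted p under 0.05 by edgeR there were 2 of them, Nck1 and Eef2, where 4.85% of all tested genes reached it. Groups did not overlap for 5 of the 54, 9.26%, against 10.4% of all tested genes. Nck1, which encodes an adaptor that modulates eIF2 phosphorylation, had 4.45, 3.90 and 4.44 FPKM in Cxcr4+ against 6.42, 5.83 and 6.54 FPKM in Cxcr4- libraries. Its groups did not overlap, but it was not called (log2 fold change -0.56, SE 0.13, adjusted p = 0.782). It belongs to the list of eIF2 kinases and phosphatase subunits, whose median log2 fold change was 0.03 over 8 genes.

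The remaining lists had median log2 fold changes from -0.09 to 0.02, beside 0.0004 over all genes. Eef2, which encodes the translocase of elongation, had 1290.1 ± 119 against 1449 ± 38.4 FPKM (log2 fold change -0.18, SE 0.07). The elongation and termination list had a median of -0.07 over 9 tested genes. Integrated stress response targets, which rise when eIF2 is phosphorylated, had a median of 0.02 over 10 genes, with Ddit3 at 48.01 ± 5.68 against 41.4 ± 4.84 FPKM and Trib3 at 5.88 ± 0.124 against 5.29 ± 0.639 FPKM. The mTORC1 and Mnk list had a median of -0.09 over 15 genes. Its smallest p values were those of Rheb, the GTPase that activates mTORC1 (log2 fold change 0.17), and the ribosomal S6 kinase gene Rps6ka3 (0.16). The list of poly(A)-binding proteins and helpers had a median of -0.0021 over 12 genes, with Pabpc4 at 38.9 ± 1.59 against 42.2 ± 1.88 FPKM and Paip2b at 4.59 ± 0.288 against 4.18 ± 0.127 FPKM.

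Eif4h lies on chromosome 5 at 134648575 to 134668344 on the reverse strand in GRCm39. Its row pools 5 transcripts, of protein-coding and retained-intron types, so a shift between them cannot be seen in these values. None of the other genes listed overlapped it. Within 250 kb, 6 other genes were tested and 0 were called, where 0.0312% of all tested genes were. The nearest, Lat2, an adaptor of leukocyte receptor signalling 4696 bases away, had 37.0, 33.0 and 34.3 FPKM in Cxcr4+ against 25.7, 31.2 and 29.2 FPKM in Cxcr4- libraries. Lat2 thus lay on the other side from Eif4h, with groups that did not overlap, but was not called (log2 fold change 0.28, SE 0.10, adjusted p = 0.998). Limk1, the cofilin kinase gene 16549 bases away, had a log2 fold change of -0.07, and Rfc2, a subunit of the replication clamp loader, 0.16. Clip2 had -0.14, and Gtf2ird1 had 0.20 with groups that did not overlap. Over all tested genes, 10.4% had groups that did not overlap. Syna had at most 27 counts in a library.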

How the data were processed

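RNA of 6 libraries was measured. The tools named per the submitters' processing notes were HISAT2, StringTie and cutadapt, and the build GRCm39. Versions, annotation release, counting settings and strand were not given in these sources. Each estimated count and FPKM value per gene and library was computed by the authors and deposited in 1 table. The counts were whole numbers and rounding changed none. Multiples of 4 made up 43.2% of the counts from 1 to 20 (25% if spread evenly), so a low count can overstate the fragments behind it. The deposited FPKM hold a constant of 0.0001 where the count is 0, read here as 0.

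The test was that of edgeR 4.0.16 under R 4.3.3 (quasi-likelihood, earlier dispersion method, TMM, filterByExpr with minimum count 10 and minimum total 15, group as the sole term), with Benjamini-Hochberg adjustment over the 16031 genes kept and a threshold of 0.05. The SE was taken from the F statistic, and 95% intervals use the fit's degrees of freedom. On simulated counts for the 16031 genes of this comparison the procedure recovered 1.45% of genes at 1.5-fold, 34.8% at 2-fold and 66.2% at 4-fold. It made 3 false calls. The changed genes were drawn at random from all 16031, not from the members alone. Between any 2 libraries the difference was above sampling noise (11.7 to 32.1 chi-square units per degree of freedom, counts divided by 4).

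The members and lists were chosen with earlier results of these data known. The genes named were Eif4h, the member of highest level, of smallest p and with groups that do not overlap in each factor, paralogue sets, of each further list those with an unadjusted p under 0.05 or otherwise the 2 of smallest p, and the tested genes within 250 kb of Eif4h. Further members were given as examples of their factor, after their values were seen. Alternatives were other scalings, no filter, DESeq2 1.42.0, edgeR's bias-adjusted method, counts divided by 4, limma 3.58.1 on log2 FPKM, blocks and leaving out each library; the libraries numbered 1 and 3 alone were added after seeing the data. Promoter windows came from RefSeq (GRCm38.p6), with 40 of 70 members matched. Figures were drawn with matplotlib 3.10.9.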

Additional observations from a re-analysis of the deposited data

How the results depend on the processing

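The log2 fold change of Eif4h was negative in all 17 alternatives run, from -1.12 to -0.96, while its call was lost in 12 of them. It kept its call with DESeq2 size factors in edgeR, no filter on low counts, DESeq2, counts divided by 4 and edgeR's bias-adjusted method. The 1 call among the initiation factors became 0 with library totals alone (Eif4h log2 fold change -1.05, adjusted p = 0.0702), limma-trend on log2(FPKM + 1) (-1.02, adjusted p = 0.130) and on log2(FPKM + 0.1) (-1.04, adjusted p = 0.113), with the libraries numbered 2 as a block (-1.05, adjusted p = 0.0571) and in the libraries numbered 1 and 3 alone (-0.96, adjusted p = 0.134). With 1 library left out, Eif4h ran from -1.12 to -0.98 with 0 calls among the factors, and fewer libraries were fitted; over all genes 1 to 9 were then called. The count over all genes, 5 in the fit reported, was 63 with DESeq2 and 2 with limma-trend on log2(FPKM + 1). Same-numbered libraries of the groups deviated together with correlations of 0.0383, 0.141 and 0.0451, and 4 of 6 libraries correlated best with their own number. Whether the numbers pair the samples was not settled by these values, and the fit reported did not pair them. Before adjustment, edgeR p-values below 0.05 numbered 777 in the fit reported and 1495 with a block for each replicate number. They numbered 1485 with only the libraries numbered 2 as a block. Fitting the replicate number as a block, 0 genes and 0 factors were called, with Eif4h at -1.05 (adjusted p = 0.115). The cause of these losses was not tested otherwise. The medians of eIF2, eIF2B and eIF3 moved by less than the spread between libraries in all 17 alternatives. The eIF4 median log2 fold change, -0.0455, was -0.0764 in the libraries numbered 1 and 3 alone, and -0.0905 to -0.0439 with 1 library left out. At this number of libraries and this depth, 1.45% of simulated 1.5-fold changes were recovered. The limits set by each were not compared. The changed genes were drawn at random from all 16031 tested, whose mean FPKM had a median of 3.09, against 30.2 for the members. The share recovered is thus not one for the initiation factors.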
